A study of Mus musculus with 24 samples.

Results

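Livers given as DNMT1 knockout were compared with control livers at week 4, the earliest of the 3 weeks in the series. The 8 arrays, 4 labelled DNMT1 knockout (replicates 1, 3, 4 and 5) and 4 labelled control (replicates 1, 3, 4 and 5), were taken by their genotype and week labels out of 24 arrays in all. All 24 hold total RNA of mouse liver hybridised to an Illumina bead array. The labels give no strain, sex, allele, Cre driver or batch, and do not say from when the weeks are counted or whether a group's 4 arrays come from 4 animals, so every p-value here reflects array-to-array spread alone, which may be technical. The 8 arrays had 12211 to 12246 of 25697 probes above background, and 14536 probes of 10733 genes, detected over background in no fewer than 4 of 24 arrays, were tested.

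DNMT1 copies methyl marks at CG dinucleotides onto the new strand after DNA replication, and UHRF1 brings it to hemimethylated sites. In body tissues such marks keep many germline genes, one parental allele of imprinted genes and the promoters of endogenous retroviruses silent. Liver consists mainly of hepatocytes, which make plasma proteins, bile acids, urea and glucose and clear foreign compounds, together with Kupffer cells (the resident macrophages), sinusoidal endothelium, stellate cells that lay down scar matrix, and bile duct cells.

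Values are background-subtracted, normalized bead intensities in arbitrary units, listed in the replicate order 1, 3, 4, 5, and their number, 4 per group, limits the precision. Differences (knockout minus control) are of log2(intensity + 16), with intensities below 0 set to 0, as difference ± SE with limma's p adjusted over all tested probes, and a gene is called higher or lower below 0.05. This scale understates the change of weak genes. Gene lists are described by how many members passed the test and by their median. Over all genes tested 14.6% were higher and 12.3% lower, and each list count is to be read beside these shares. Counts of 1 or 2 members often moved when single arrays were left out. A gene is read through its probe of highest mean, and a gene below background in all control arrays gets a lower bound of the fold against the background threshold of 16.3 units.

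The arrays were checked first. The 10 liver-defining markers, from albumin to Hnf4a, were above background on all 8 arrays, with summed intensities of 208103 to 231261 in knockout and 209824 to 228265 in control arrays. Their mean log2 value was 12.85, 12.87, 13.04 and 12.83 in knockout arrays and 13.11, 13.09, 13.24 and 13.12 in control arrays. These means did not overlap, and 3 of the 10 genes were called lower and none higher. The Dnmt1 probe read 65.9, 87.1, 52.3 and 105 in knockout livers, against 118, 74.1, 117 and 71.2 in control livers. The groups overlapped, and the difference of -0.25 ± 0.19 did not pass the test (adjusted p = 0.37, exact two-sided permutation p = 0.371 over 70 arrangements). Where that probe lies relative to the deleted part is not stated in the labels, so it does not check the deletion.

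On the first principal component of the 8 arrays, with 59.2% of the variance, knockout arrays lay at 39.9, 43.4, 29.5 and 47.2 and control arrays at -40.7, -39.6, -38.1 and -41.6. Knockout replicate 4 lay nearest the controls. For the 590 genes at least 2-fold higher it had gone a median 83.9% of the way from the control mean to the other knockout arrays, and for the 307 at least 2-fold lower 77.1%.

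Control replicate 5 carried transcripts of the exocrine pancreas. Of 27 probes for acinar enzymes, 6 to 7 were above background in knockout arrays, 24 on control replicate 5 and 5 to 9 on the other control arrays. Summed intensity of these probes was 2187 to 2837 in knockout arrays, 40273 on control replicate 5 and 1366 to 2523 on the other control arrays. Spink1, a trypsin inhibitor that is part of these sums, was higher at 2002, 1810.0, 1475 and 2337 in knockout livers, against 111, 218, 796 and 1360.0 in control livers (2.15 ± 0.57, adjusted p = 0.0060). Of the 7 tested genes of the list, 1 was higher, 4 were lower and 2 were not called. Cela2a, pancreatic elastase, read 18.6, 59.9, 93.8 and 60.3 in knockout livers, against 132, 105, 244 and 7951 in control livers, and was called lower (-2.68 ± 0.75, adjusted p = 0.0094). Its difference without control replicate 5 was -1.28 ± 0.36 (adjusted p = 0.011). Pnliprp1, a pancreatic lipase relative, read 44.8, 38.7, 65.5 and 64.6 in knockout and 46.7, 70.0, 342 and 3289.6 in control livers and was called lower (-2.05 ± 0.67, adjusted p = 0.024), with a value of -0.86 ± 0.37 (adjusted p = 0.096) without that array; without knockout replicate 3 or control replicate 4 the values were -1.94 ± 0.73 (adjusted p = 0.062) and -1.93 ± 0.73 (adjusted p = 0.058). Cela1, an elastase, was lower with it (-1.89 ± 0.24, adjusted p = 2.1e-06) and without it at -1.53 ± 0.19 (adjusted p = 2.0e-06).

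**Figure D1:**
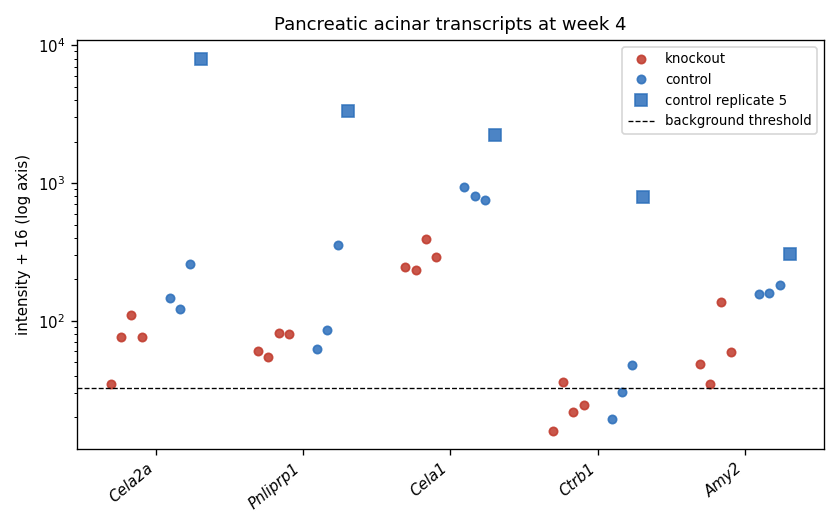
Intensity + 16, on a log axis with values below 0 drawn as 0, of 5 pancreatic acinar transcripts on each week 4 array, with the 4 knockout arrays left of the 4 control arrays of each gene. Cela2a reads 18.6 to 93.8 in knockout arrays, 7951 on control replicate 5, drawn as a square, and 105 to 244 on the other control arrays.

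Of 10733 genes, 1563 were higher in knockout livers and 1317 lower, which is 14.6% and 12.3% of those tested. By probe the shares were 13% and 12.8% (1887 and 1863 of 14536). Rises were larger than falls at the extremes: 590 genes rose and 307 fell at least 2-fold, 151 and 31 at least 4-fold, and 35 and 2 at least 16-fold. The knockout arrays did not overlap the control arrays for 1342 of the 1563 and 1131 of the 1317, where 15.8% and 14.1% of all genes had knockout arrays wholly above or below the controls. The median difference over all genes was -0.01.

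Of the tested genes, 2718 had more than 1 probe. Other probes of the higher genes numbered 560, of which 239 were called higher, 2 lower and 319 not called. Those of the lower genes numbered 547, of which 318 were called lower, 1 higher and 228 not called. Among genes described here as changed, further probes of Gpnmb and Xiap that were not called are given with these genes below. A further probe was also not called for Ccl4 (0.66 ± 0.26), Magea5 (0.09 ± 0.31), Mmp13 (-0.16 ± 0.27) and Rps19 (0.25 ± 0.26) of those higher. The same held for Cd59b (-0.09 ± 0.22), Cyp39a1 (-0.30 ± 0.27), Otc (-0.63 ± 0.30), Sdhb (0.27 ± 0.24), Tk1 (-0.14 ± 0.37), Uox (-0.67 ± 0.31) and Mest (-0.30 ± 0.32 and -0.09 ± 0.34) of those lower. Which transcripts each probe reads was not tested.

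**Figure D2:**
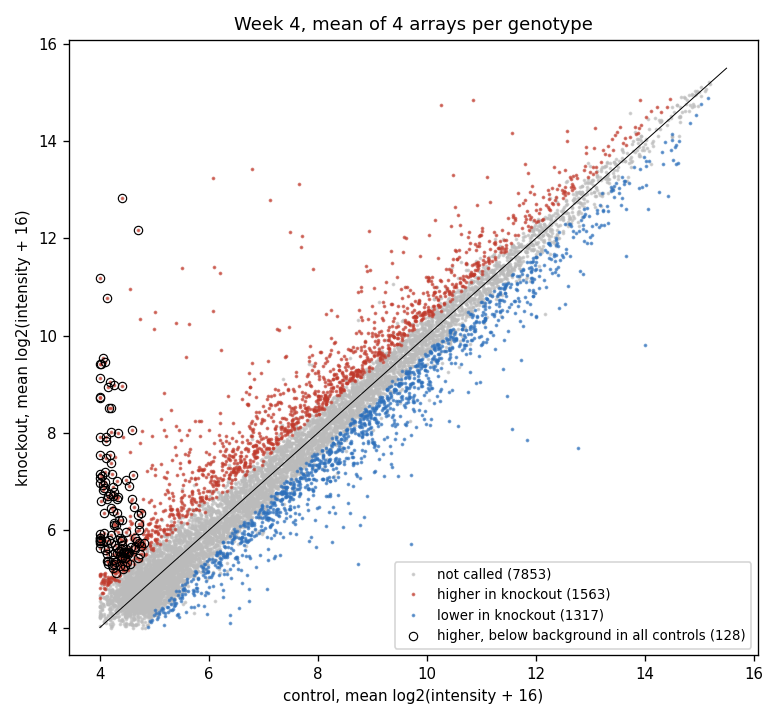
Mean log2(intensity + 16) of 4 knockout arrays (vertical) against 4 control arrays (horizontal) for 10733 genes, with genes higher (1563), lower (1317) and not called (the rest) in separate colours and the 128 genes that were below background in all control arrays and called higher outlined. The outlined genes stand at the left edge, with Bglap3 and Rhox5 at its top, and no spread of like size runs along the lower edge.

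Genes below background on all control arrays and above it on all knockout arrays numbered 136 (1.27% of the genes tested), and 128 of them were called higher. The filter on dim probes could be passed through the knockout arrays alone. Of the 136, 124 were above background on at least 4 arrays other than the knockout arrays of this week. Those others include the knockout arrays of the later weeks, so the count does not show that the filter was passed without knockout arrays. The lower bound of the fold was at least 2 for 94 of the 128, at least 10 for 25 and at least 100 for 4, with a median of 3.05. The reverse pattern, below background in knockout and above it in control arrays, held for 32 genes (0.298%), of which 24 were called lower and 11 had a bound of at least 2. With fewer arrays to meet, the 32 became 49 without knockout replicate 1, 51 without control replicate 4 and 54 without control replicate 5.

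Germline genes were among this group. Of 25 tested germline and testis genes, 16 rose and 1 fell (64.0% and 4.00%, against 14.6% and 12.3% of all genes), 9 were below background in every control array, and the median difference was 1.63. Another 30 of the 55 listed genes on the array did not pass the filter. Members silent in control livers could pass it through knockout arrays alone. The 25 tested members are thus partly selected for high knockout values, which raises the share of 64.0%. For 4 of the members that rose, the 250 bases upstream of the RefSeq transcription start (GRCm38.p6) are shown, because DNMT1 maintains methylation at CG sites. Capitals mark each CG. Over 27025 promoters of this length, 91.7% held at least 1 CG, with a median of 6 and quartiles of 2 and 16.
Rhox5, chrX:37754358-37754607, plus strand, 4 CG: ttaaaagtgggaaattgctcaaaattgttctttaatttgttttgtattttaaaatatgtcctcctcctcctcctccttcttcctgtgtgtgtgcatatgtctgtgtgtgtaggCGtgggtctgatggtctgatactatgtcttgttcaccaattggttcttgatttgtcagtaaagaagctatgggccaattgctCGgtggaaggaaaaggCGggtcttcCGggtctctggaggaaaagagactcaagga
Tex19.1, chr11:121145893-121146142, plus strand, 15 CG: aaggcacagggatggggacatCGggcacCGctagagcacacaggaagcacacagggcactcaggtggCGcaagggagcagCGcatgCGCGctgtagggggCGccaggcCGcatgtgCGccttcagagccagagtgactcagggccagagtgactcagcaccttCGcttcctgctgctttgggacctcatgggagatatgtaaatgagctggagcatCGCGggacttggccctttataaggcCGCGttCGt
Dpep3, chr8:105979420-105979669, minus strand, 10 CG: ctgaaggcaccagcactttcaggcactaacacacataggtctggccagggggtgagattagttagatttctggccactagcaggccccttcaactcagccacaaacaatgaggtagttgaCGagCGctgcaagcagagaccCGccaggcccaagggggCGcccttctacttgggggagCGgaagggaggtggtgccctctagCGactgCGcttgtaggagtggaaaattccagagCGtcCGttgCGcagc
Magea2, chrX:155033293-155033542, minus strand, 8 CG: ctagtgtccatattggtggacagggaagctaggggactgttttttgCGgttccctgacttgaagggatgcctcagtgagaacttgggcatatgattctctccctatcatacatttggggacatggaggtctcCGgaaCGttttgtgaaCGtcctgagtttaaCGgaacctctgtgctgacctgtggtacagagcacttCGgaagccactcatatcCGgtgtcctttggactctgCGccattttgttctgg
The 4 windows hold 4 to 15 CG sites, between the quartiles of all promoters. No methylation was measured on these arrays.

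Rhox5, a reproductive homeobox gene on the X chromosome, whose window has the fewest of these CG sites, read 5354, 4207, 3932 and 4999 in knockout livers, against 6.83, 11.3, 13.4 and 8.75 in control livers. Every control value was below background, so the rise was at least 281-fold (7.47 ± 0.28, adjusted p = 2.4e-16). Tex19.1, which restrains retrotransposons in germ cells, read 1915, 2110.0, 1783 and 2162 in knockout livers, against 3.54, 13.4, -2.96 and 17.1 in control livers. Only control replicate 5 passed the background threshold, and the groups stood far apart (6.41 ± 0.30, adjusted p = 2.4e-14). Its neighbour and relative Tex19.2 read 879, 548, 613 and 691 in knockout livers and at most -1.05 in control livers, at least 41.1-fold higher. The 2 genes are near-copies, so a probe of one may also bind transcripts of the other.

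Dpep3, a membrane dipeptidase of the testis, read 719, 617, 619 and 709 in knockout livers, against -7.13, -14.7, 1.21 and -4.63 in control livers, a rise of at least 40.7-fold (5.38 ± 0.36, adjusted p = 1.9e-11). The X-linked Magea2 read 577, 512, 404 and 448 in knockout livers and at most 14.4 in control livers (at least 29.4-fold), and Magea5 read 201 to 292 and at most -0.666. These MAGE family members are closely alike, so which of them was transcribed is uncertain. Asz1, which acts in the piRNA pathway against transposons, read 128 to 230.1 in knockout livers and 2.96 to 16.4 in control livers (3.05 ± 0.36, adjusted p = 7.1e-07). The testis tubulins Tuba3a (3.26 ± 0.41) and Tuba3b (3.37 ± 0.27) rose as well (adjusted p = 1.5e-06 and 5.1e-10), and they too are near-copies.

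The largest rise of all was in the gene cluster named for osteocalcin, a small bone matrix protein. Bglap3 read 6509.8, 8419.5, 7794 and 6655 in knockout livers, against 6.73, 8.21, 1.25 and 5.80 in control livers, at least 447-fold higher (8.42 ± 0.26, adjusted p = 8.1e-18). Bglap1 read 1327, 1678, 2191 and 1861 in knockout livers and at most 6.95 in control livers (at least 106-fold), and Bglap2 read 509 to 831 and at most 3.75 (at least 41.8-fold). Other Bglap1 probes gave 4.58 ± 0.31 and 0.97 ± 0.28. No array overlapped, and since these genes are nearly identical the probes cannot tell them apart with certainty. Pkd1l2, a polycystin relative, read 1859, 2149, 2262 and 3219.7 in knockout livers, against -8.62, -7.87, -3.89 and -4.50 in control livers (at least 142-fold, adjusted p = 5.2e-15), and another Pkd1l2 probe gave 5.49 ± 0.34.

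Other genes with large rises are known from different tissues, and some had signal in control arrays. Ntrk2, the receptor of brain-derived neurotrophic factor, read 1334, 1466, 1170.0 and 1159 in knockout livers, against 15.1, 5.46, 5.68 and 18.7 in control livers (5.60 ± 0.30, adjusted p = 2.9e-13). Another Ntrk2 probe gave 1.42 ± 0.19. Ntrk2 was the one riser among 18 neuronal genes tested, of which 1 fell and 16 were not called. The WAP-domain protease inhibitors, secreted antimicrobial proteins of mucosa, had 5 of 10 higher and 1 lower. Slpi, the secretory leukocyte protease inhibitor, read 11179, 10729, 5926 and 12113 in knockout livers, against 45.7, 14.9, 48.0 and 157 in control livers (7.15 ± 0.72, adjusted p = 4.8e-08). Wfdc12 read 867, 529, 986 and 635 in knockout livers and at most 2.26 in control livers (at least 44.8-fold), and Wfdc3 read 484, 512, 113 and 504 and at most 2.66 (at least 21.1-fold), with knockout replicate 4 the lowest. Pira4 and Pira6, paired immunoglobulin-like receptors of myeloid cells, rose by 5.32 ± 0.24 and 4.79 ± 0.26 (adjusted p = 5.2e-15 and 3.7e-13) and are members of a family of near-copies.

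**Figure D3:**
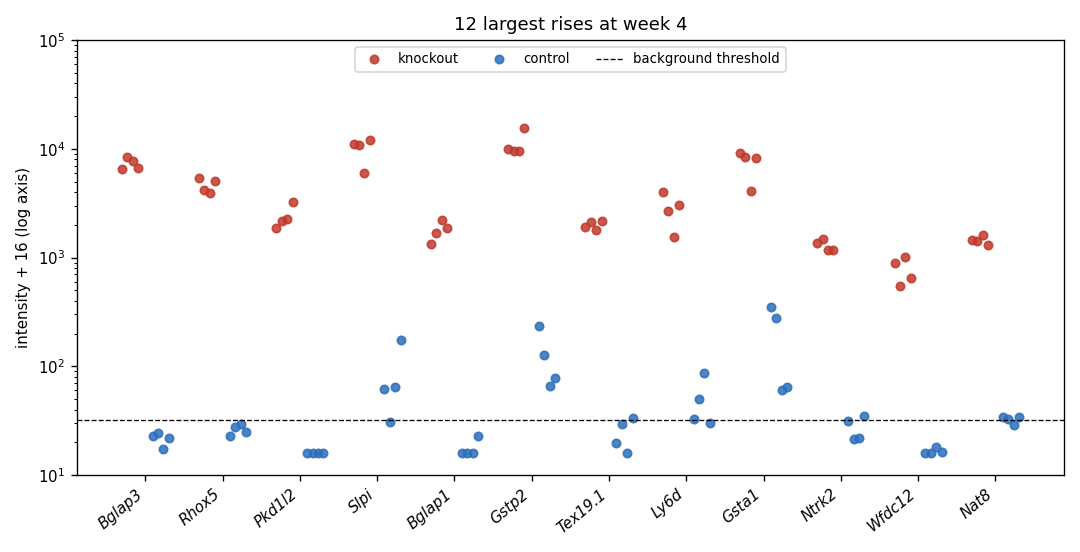
Intensity + 16 on a log axis, with values below 0 drawn as 0, for the 12 genes with the largest rises, 4 knockout arrays left of 4 control arrays for each gene, with the background threshold as a dashed line. All knockout points lie above all control points, and all control points of Bglap3, Rhox5, Pkd1l2, Bglap1 and Wfdc12 lie below the line.

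Of the 128 genes below background in all control arrays and called higher, those that RefSeq lists by symbol as protein-coding were placed on its annotation of GRCm38.p6. Pairs with any other of the 128 were not counted. In 4 pairs of them no other protein-coding gene lay between (Sectm1a and Tex19.2, Bglap3 and Bglap2, Rhox5 and Rhox6, Magea2 and Magea5), and 9 pairs had at most 2. The number that their count alone would give was not computed. Xist, the noncoding RNA of X inactivation, read 68.6, 94.1, 47.5 and 61.4 in knockout livers and -0.651, 6.20, 4.93 and 5.10 in control livers (2.05 ± 0.31, adjusted p = 2.1e-05). Another Xist probe gave 1.31 ± 0.32 (adjusted p = 0.0030). Of the tested probes of 4 Y-linked genes, 3 were above background on all 8 arrays and the other on 7 of them.

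The mirror group of genes lost from detection was smaller in number. Zfp768, a zinc finger protein, read 10.8, 4.22, 7.42 and -4.57 in knockout livers, against 69.9, 77.6, 69.2 and 98.0 in control livers, at least 4.77-fold lower (-2.15 ± 0.23, adjusted p = 1.1e-07). Slc38a5, a glutamine transporter, read 0.501, -0.761, -12.4 and 4.51 in knockout livers and 63.0, 45.7, 61.5 and 112 in control livers, at least 4.08-fold lower. Cdkn1b, the cell cycle inhibitor p27, read 0.288 to 11.6 in knockout livers and 31.7 to 76.8 in control livers (at least 2.67-fold lower), and Xiap, an inhibitor of caspases, 1.11 to 7.89 and 27.2 to 41.3. A second Xiap probe gave -0.08 ± 0.28 (adjusted p = 0.87).

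Endogenous retroviruses were read through the probe named Iap, the symbol of the intracisternal A particles. It read 29841, 28346, 30037 and 28951 in knockout livers, against 1618, 1768, 2258 and 1735 in control livers (3.99 ± 0.23, adjusted p = 1.6e-12). The groups were far apart. The largest value of any probe in the series was 38683, and these values do not show whether the Iap probe was saturated in knockout arrays.

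Among 16 tested genes of the DNA methylation machinery, 3 rose and 2 fell, and these shares (18.8% and 12.5%) stood near those over all genes (14.6% and 12.3%). Uhrf1, the partner of DNMT1, read 118, 401, 305 and 417 in knockout livers and 116, 82.4, 166 and 43.0 in control livers (1.45 ± 0.37, adjusted p = 0.0051), with knockout replicate 1 inside the control range. Mbd4, a glycosylase that repairs mismatches at CG sites, read 20.6 to 29.9 in knockout livers and at most 10.7 in control livers (1.15 ± 0.25). Tet2, an enzyme that oxidises methylcytosine, was lower at 8.06 to 26.4 in knockout livers and 39.5 to 63.5 in control livers (adjusted p = 0.030). Without knockout replicate 3 or 4 or control replicate 1, 4 or 5 the call for Tet2 was lost (adjusted p = 0.050 to 0.092).

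Imprinted genes, expressed from a single parental allele, had 7 of 17 members higher (41.2%) and 1 lower, with a median of 0.40. H19, a fetal noncoding RNA, read 3449, 2681, 2136 and 2457 in knockout livers, against 185, 148, 814 and 108 in control livers (3.46 ± 0.39, adjusted p = 2.7e-07). Control replicate 4 was the highest control, and the groups did not overlap. Its neighbour Igf2, a fetal growth factor, read 344, 152, 218 and 184 in knockout livers and 29.3, 46.9, 102 and 69.9 in control livers (1.65 ± 0.46, adjusted p = 0.0084). Impact, a regulator of translation, rose by 1.92 ± 0.22, Phlda2 by 1.83 ± 0.35 with all control arrays below background, and the receptor Igf2r by 0.65 ± 0.15. Mest read 16.2, 8.55, 38.3 and 15.8 in knockout livers and 70.4, 119.5, 76.8 and 17.3 in control livers and fell by 1.18 ± 0.39 (adjusted p = 0.025), with control replicate 5 inside the knockout range. Without any 1 of knockout replicates 1, 3 and 5 or control replicates 1, 3 and 4 Mest was not called (differences of -1.15 to -0.91, adjusted p = 0.051 to 0.11).

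Genes of juvenile and fetal liver had 12 of 23 higher (52.2%) and 1 lower. Ly6d, a surface protein anchored by lipid, read 4003, 2639.7, 1545 and 3058 in knockout livers, against 16.6, 33.6, 70.4 and 14.1 in control livers (5.88 ± 0.33, adjusted p = 8.7e-13). Knockout replicate 4 was the lowest of its group and still far above every control. Alpha-fetoprotein (Afp), the classical fetal marker, read -6.99 to 34.2 in knockout livers and 0.647 to 8.81 in control livers and did not pass the test (0.62 ± 0.31, adjusted p = 0.15), except without knockout replicate 4 (0.94 ± 0.30 (adjusted p = 0.022)). Of the wider Ly6 family, 6 of 12 rose, among them Ly6a (Sca-1, 2.38 ± 0.22), Ly6e (2.45 ± 0.24) and Ly6k, which was below background in all control arrays (2.93 ± 0.33). The complement regulators Cd59a (-0.69 ± 0.12) and Cd59b (-1.06 ± 0.16) of the same family fell.

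Among calcium-binding proteins, 6 of 17 S100 and annexin genes rose (35.3%) and 3 fell (17.6%), against 14.6% and 12.3% of all genes. Anxa2, a membrane scaffold, read 5174, 6724, 5961 and 8008 in knockout livers, against 1360.0, 1398, 1876 and 1238 in control livers (2.13 ± 0.17, adjusted p = 1.1e-09), and Anxa5 rose by 1.78 ± 0.10 and S100a11 by 2.42 ± 0.24, while S100a13 (-1.77 ± 0.17) and S100a1 (-0.89 ± 0.12) fell. Among epithelial structural genes, keratins, claudins and junction genes had 12 of 28 higher (42.9%) and 1 lower. Krt8, the main keratin of hepatocytes, read 9535, 13473, 11319.8 and 13353 in knockout livers, against 3576, 3745, 3066 and 3919 in control livers (1.72 ± 0.13, adjusted p = 2.4e-10). Its partner Krt18 rose by 1.66 ± 0.21, while Gjb1, the hepatocyte gap junction protein connexin 32, fell by 1.14 ± 0.27.

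Of 32 glutathione transferases and synthesis genes, which conjugate foreign compounds and meet oxidant stress, 11 rose (34.4%) and 2 fell. Gstp2, a pi-class transferase, read 9896, 9626, 9569 and 15676 in knockout livers, against 218, 110.2, 50.1 and 62.0 in control livers (6.62 ± 0.48, adjusted p = 9.8e-11). The alpha-class Gsta1 read 9065, 8361, 4060.2 and 8278 in knockout livers, against 337, 259, 43.9 and 47.9 in control livers (5.68 ± 0.76, adjusted p = 3.4e-06). Gpx2, a glutathione peroxidase of the gut, rose by 3.05 ± 0.36 and Gstm3 by 3.46 ± 0.27, with all control arrays below background for Gstm3, while Gsto1, an omega-class transferase, fell by 1.19 ± 0.15. Gstp2, Gsta1 and Gsta2 each have close relatives that their probes may bind.

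Other targets of NRF2, the transcription factor of oxidant defence, had 12 of 31 members higher (38.7%) and 2 lower. Cbr3, a carbonyl reductase, read 4422, 2259.7, 1019 and 3668 in knockout livers, against 57.7, 80.0, 57.6 and 41.0 in control livers (5.08 ± 0.30, adjusted p = 2.5e-12). Srxn1, which repairs oxidised peroxiredoxins, read 1927 to 4706 in knockout livers and 455 to 780.1 in control livers (2.40 ± 0.24). Nqo1, a quinone reductase, read 231 to 480.1 and 84.5 to 143 (1.47 ± 0.29, adjusted p = 4.2e-04). For Cbr3 and Srxn1 knockout replicate 4 was the lowest of its group, and no array of these 3 genes overlapped.

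**Figure D4:**
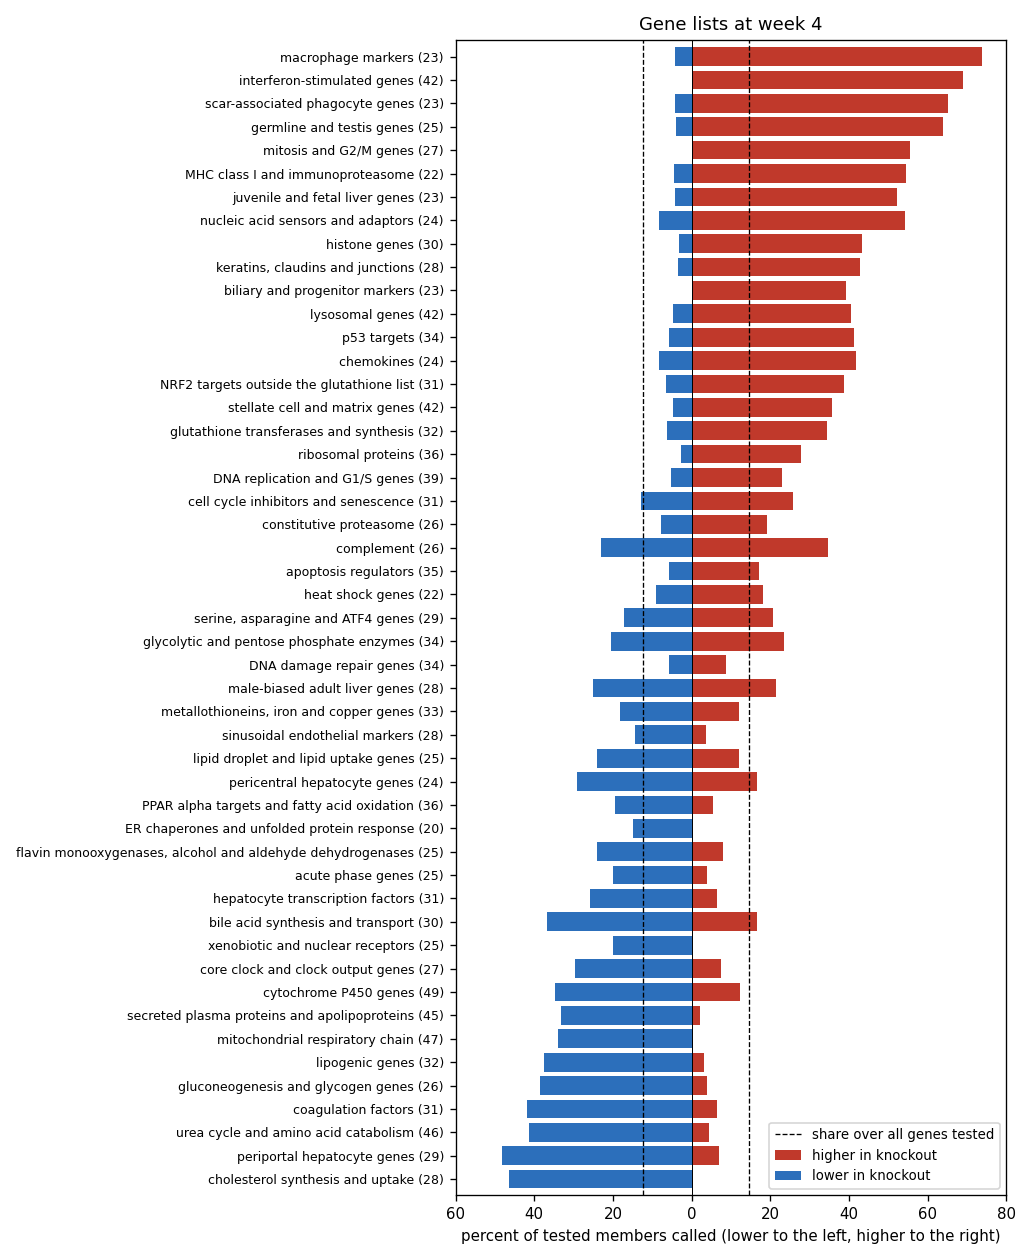
Share of the tested members of the 49 gene lists with at least 20 tested members that were called higher (right) and lower (left) in knockout livers, with the number of members tested beside each name and dashed lines at the shares over all 10733 genes, 14.6% and 12.3%. Macrophage markers reach 73.9% higher and interferon-stimulated genes 69.0%, while periportal genes reach 48.3% lower and cholesterol genes 46.4%.

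Antiviral defence genes were higher. Of 42 interferon-stimulated genes, 29 rose and none fell (69.0% against 14.6% of all genes), with a median of 0.91. Ifi27 read 19316, 18043, 18231 and 17492 in knockout livers, against 3562, 3359.6, 2259.7 and 3039 in control livers (2.59 ± 0.16, adjusted p = 5.5e-12). Oas1g, which makes the 2-5A messenger when it meets double-stranded RNA, read 1057, 928, 1124 and 1281 in knockout livers, against 133, 140.5, 145 and 141 in control livers (2.83 ± 0.22, adjusted p = 5.3e-10). Irf7, the transcription factor of the response, read 538, 448, 353 and 618 in knockout livers and 101, 120.2, 74.5 and 75.8 in control livers (2.21 ± 0.23). No array of these 3 genes overlapped.

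Many interferon-stimulated promoters carry a response element that holds the letters GAAANNGAAA, and 2 promoters that hold it are shown, from 250 bases upstream of the RefSeq start (GRCm38.p6), with the match on either strand in capitals. It was found in 3.04% of 27025 promoters of this length.
Oas1g, chr5:120887614-120887863, minus strand, 2 overlapping matches: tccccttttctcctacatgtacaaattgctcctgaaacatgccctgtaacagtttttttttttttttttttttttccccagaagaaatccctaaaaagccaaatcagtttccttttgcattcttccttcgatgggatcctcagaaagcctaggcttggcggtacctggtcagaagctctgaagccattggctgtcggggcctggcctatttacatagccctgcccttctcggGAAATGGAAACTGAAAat
Rsad2, chr12:26456453-26456702, minus strand, 1 match: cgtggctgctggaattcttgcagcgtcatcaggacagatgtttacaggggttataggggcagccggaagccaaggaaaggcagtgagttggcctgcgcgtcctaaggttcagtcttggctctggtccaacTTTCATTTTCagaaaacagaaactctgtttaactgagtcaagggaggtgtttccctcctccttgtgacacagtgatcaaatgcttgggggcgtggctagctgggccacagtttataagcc
A match describes these letters and says nothing of what was bound there. Rsad2, viperin, an antiviral enzyme chosen for its promoter after its values were seen, read 2198, 3832, 2341 and 3440.1 in knockout livers, against 634, 603, 731 and 605 in control livers (2.13 ± 0.28, adjusted p = 3.5e-06).

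Genes that sense nucleic acids upstream of interferon had 13 of 24 higher and 2 lower, and 9 higher without control replicate 5 and 8 without knockout replicate 5. Dhx58, the RNA sensor LGP2, read 357, 557, 424 and 498 in knockout livers, against 164, 175, 134 and 163 in control livers (1.43 ± 0.19, adjusted p = 4.9e-06), and Eif2ak2, the kinase PKR, rose by 1.31 ± 0.18. Rnaseh2c, a subunit of the nuclease that clears RNA from DNA hybrids, read 69.0, 107, 135 and 119 in knockout livers, against 501, 374, 329.9 and 354 in control livers, and fell by 1.73 ± 0.21 (adjusted p = 8.6e-07). Antigen presentation by MHC class I and the immunoproteasome had 12 of 22 members higher (54.5%), with Tap2, the peptide transporter, at 742 to 999.9 in knockout livers and 285 to 483 in control livers (1.12 ± 0.18). The constitutive proteasome stood nearer the share of all genes, with 5 of 26 higher, 2 lower and a median of 0.02. MHC class II presentation had 7 of 10 higher and none lower. Cd74, its invariant chain, read 1746, 1763, 1116 and 1896 in knockout livers, against 633, 777, 367 and 949.6 in control livers (1.29 ± 0.26, adjusted p = 4.7e-04).

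Of 24 chemokines 10 were higher (41.7%) and 2 lower (8.33%), against 14.6% and 12.3% of all genes. Cxcl14 read 164, 194, 319 and 257 in knockout livers and at most 6.04 in control livers, at least 13.8-fold higher. Cxcl10, an interferon-induced attractant of T cells, read 128, 261, 163 and 258 in knockout livers, against 33.9, 26.1, 34.1 and 13.2 in control livers (2.33 ± 0.37, adjusted p = 3.1e-05), and Ccl4 rose by 2.71 ± 0.33. Ccl27a, an epithelial chemokine, fell, reading 353 to 379 in knockout livers and 719 to 775 in control livers (adjusted p = 1.6e-05).

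Of 26 complement genes tested, 9 rose (34.6%) and 6 fell (23.1%), against 14.6% and 12.3% of all genes, and 3 fell without knockout replicate 1. The C1q chains C1qb (1.04 ± 0.28) and C1qc (0.99 ± 0.27) rose, while the proteases Masp1 (-1.06 ± 0.15) and Masp2 (-0.75 ± 0.13) fell. The complement gene C6, described below with the sex-biased genes, rose by more than the C1q chains (2.27). Acute phase genes had 1 of 25 higher (4.00%) and 5 lower (20.0%), but 3 lower without any 1 of knockout replicates 1, 3 and 5 or control replicates 1, 4 and 5. The riser was Lcn2, lipocalin 2, at 6470.3, 10640.2, 6482 and 13839.7 in knockout livers, against 145, 132, 399 and 151 in control livers (5.46 ± 1.18, adjusted p = 0.0011). The hepcidin gene Hamp2 read 2624, 4588, 2174 and 3857 in knockout livers, against 12579, 7754, 19316 and 14649.5 in control livers, and fell by 2.02 ± 0.74 (adjusted p = 0.044). Leaving out any 1 array other than control replicate 3 ended that call (differences of -2.19 to -1.82, adjusted p = 0.056 to 0.11).

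Markers of cell types other than hepatocytes moved as well, and in bulk RNA more cells of a type and more RNA per cell cannot be told apart. Of 23 macrophage markers, 17 rose and 1 fell (73.9% and 4.35%), and 13 rose without control replicate 5. Cd68, a macrophage lysosome protein, read 321, 410.1, 352 and 619.8 in knockout livers, against 114, 150.4, 68.7 and 84.1 in control livers (1.88 ± 0.30, adjusted p = 3.9e-05). Fcer1g, the shared chain of Fc receptors, rose by 1.48 ± 0.22 and Cd14, the endotoxin co-receptor, by 2.29 ± 0.37. Cd163, the haemoglobin scavenger receptor, went the other way, reading 71.6, 67.7, 27.1 and 77.1 in knockout livers, against 232, 220.0, 244 and 228 in control livers (-1.75 ± 0.31, adjusted p = 1.4e-04). Clec4f, a lectin found on mouse Kupffer cells, rose by 1.01 ± 0.19 with no overlap.

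Genes known from scar-associated phagocytes had 15 of 23 higher (65.2%) and 1 lower. Gpnmb, a glycoprotein of lipid-laden macrophages, read 590.3, 581, 248 and 670.5 in knockout livers, against -0.937, -5.95, 5.79 and 8.69 in control livers, at least 29.9-fold higher (4.72 ± 0.30, adjusted p = 6.2e-12). Another Gpnmb probe gave 0.63 ± 0.24 (adjusted p = 0.052). Lgals3, galectin 3, read 1629.7 to 3718 in knockout livers and 409 to 539 in control livers (2.40 ± 0.22), and Trem2, a lipid receptor of phagocytes, 34.4 to 77.6 and -10.3 to 22.6 (1.55 ± 0.33, adjusted p = 8.4e-04). Knockout replicate 4 was the lowest knockout array for Gpnmb, Lgals3 and Trem2. Lysosomal genes had 17 of 42 higher (40.5%) and 2 lower, among them Grn, progranulin (1.16 ± 0.15), and Psap, prosaposin (0.87 ± 0.11).

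Of 19 T and NK cell markers 5 rose (26.3% against 14.6% of all genes) and none fell, but 1 to 3 rose without any 1 of knockout replicates 1, 3 and 5 or control replicates 1 and 3. The risers included Zap70, a kinase of the T cell receptor, at 524 to 762 in knockout livers and 133 to 241 in control livers (1.66 ± 0.23). Of 6 B and plasma cell markers 2 rose (33.3%) and none fell, with a median of -0.10. These risers include Ly6d, described above with the juvenile liver genes. Of 9 erythroid genes 1 rose and 1 fell (11.1% each). Adipocyte markers had 1 of 11 higher (9.09%) and 2 lower (18.2%), and none of 8 mesothelial and smooth muscle markers was called. Neutrophil markers had 2 of 13 higher and 1 lower at week 4, with 15.4% higher standing near the share over all genes. S100a8, a major neutrophil protein, read 71.3, 237, 258 and 289.8 in knockout livers and 212, 178, 132 and 33.5 in control livers and did not pass the test (0.63 ± 0.57, adjusted p = 0.46).

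Stellate cell and matrix genes had 15 of 42 higher (35.7%) and 2 lower, with a median of 0.42. Timp1, an inhibitor of matrix proteases, read 88.2, 123, 57.5 and 250.2 in knockout livers, against 6.04, 4.83, 4.98 and -7.30 in control livers, at least 6.84-fold higher (2.71 ± 0.33, adjusted p = 1.1e-06). Col1a1, the main fibrillar collagen, read 44.0 to 96.1 in knockout livers and 0.545 to 41.9 in control livers (1.35 ± 0.31, adjusted p = 0.0018), and the small proteoglycan Lum rose by 1.48 ± 0.22. Acta2, smooth muscle actin, the mark of activated stellate cells, read 789, 319, 502 and 619 in knockout livers and 99.9, 198, 697 and 971 in control livers, overlapping and not called (0.59 ± 0.62, adjusted p = 0.53). Matrix metalloproteinases and their inhibitors had 10 of 18 higher, with Mmp12, the macrophage elastase, at 47.6 to 142 in knockout livers and at most 4.10 in control livers, and Mmp13, a collagenase, at 55.1 to 219 and 3.99 to 22.2 (2.34 ± 0.34).

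Biliary and progenitor markers had 9 of 23 higher and none lower. The list includes Krt8 and Krt18, described above as keratins of hepatocytes, so its count is not one of duct cells alone. Aqp5, Cd24a, Cftr, Krt19, Mmp7, Pkhd1, Prom1 and Sctr were on the array but did not pass the filter. Aqp1 was not called (-0.04), and another Aqp1 probe was lower (-0.53 ± 0.14, adjusted p = 0.0047). Spp1, osteopontin, read 1671, 2353, 1678 and 2376 in knockout livers, against 432, 501, 698 and 429 in control livers (1.95 ± 0.25, adjusted p = 2.1e-06). Bicc1, an RNA-binding protein of ducts, rose by 2.10 ± 0.25, and Cdh1, E-cadherin, by 1.28 ± 0.24. Sinusoidal endothelial markers had 1 of 28 higher (3.57%) and 4 lower (14.3%, near the 12.3% of all genes), and 2 lower without knockout replicate 5 or control replicate 4. Gpr182, an atypical chemokine receptor of the sinusoids, read 257, 224, 321 and 339 in knockout livers, against 774, 949, 736 and 687 in control livers, and fell by 1.42 ± 0.21 (adjusted p = 1.6e-05).

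Of 27 mitosis and G2/M genes 15 rose (55.6% against 14.6% of all genes) and none fell, with a median of 0.88, and 10 rose without control replicate 5. Plk1, the polo kinase of mitotic entry, rose by 1.62 ± 0.35 (adjusted p = 9.9e-04). Prc1, which bundles the central spindle, read 585, 1123, 851 and 798 in knockout livers, against 436, 319, 334 and 141 in control livers (1.47 ± 0.29). Control replicate 5 was the lowest control for both, and the groups did not overlap for these genes. Over the list, knockout arrays lay wholly above the controls for 8 of 27 genes, against 15.8% of all genes. The list's mean log2 value was 6.88, 7.58, 7.40 and 7.36 in knockout arrays and 6.83, 6.56, 6.62 and 5.89 in control arrays. Knockout replicate 1 thus stood near control replicate 1. DNA replication genes had 9 of 39 higher (23.1%), 2 lower and 28 not called, and 5 higher without control replicate 5. Knockout arrays lay wholly above the controls for 4 of the 39. Mcm2, a helicase subunit, was at 135 to 182 in knockout livers and 36.8 to 95.5 in control livers (1.09 ± 0.23). Ccnd1, cyclin D1, read 8339, 7550.4, 4734 and 7299 in knockout livers, against 2029, 1838, 2699 and 2656 in control livers (1.58 ± 0.23, adjusted p = 1.0e-05), while Tk1, a thymidine kinase of S phase, fell by 1.20 ± 0.30. Histone genes, whose copies are near-identical, had 13 of 30 higher, and 7 or 8 without knockout replicate 3 or 5 or control replicate 3 or 5.

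Targets of p53 also had more risers than the background. Of 34 tested, 14 rose (41.2%) and 2 fell. Phlda3, an inhibitor of AKT, read 174, 159, 137 and 119.9 in knockout livers, against 5.21, 18.8, 16.8 and 22.6 in control livers (2.38 ± 0.28, adjusted p = 6.7e-07), Mdm2, the ligase that destroys p53, rose by 0.88 ± 0.18, and Trp53 itself by 0.75 ± 0.18. Cdkn1a, the inhibitor p21, read 1414, 2238, 2162 and 2915 in knockout livers and 646, 452, 913 and 675 in control livers and did not pass the test (1.67 ± 0.66, adjusted p = 0.062). Its other probes gave 1.34 ± 0.42 and 1.04 ± 0.53, with adjusted p-values of 0.020 and 0.15. Of 31 cell cycle inhibitors and senescence genes 8 rose (25.8%) and 4 fell, with Cdkn2b, the inhibitor p15, at 23.4 to 52.9 in knockout livers and at most 11.7 in control livers (1.23 ± 0.25). DNA damage repair genes stood below the background share, with 3 of 34 higher and 2 lower, and apoptosis regulators stood near it, with 6 of 35 higher (17.1%) and 2 lower. The risers included Tnfrsf12a, the TWEAK receptor (2.28 ± 0.26), and Mlkl, the executor of necroptosis (1.62 ± 0.20).

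Genes of hepatocyte function fell more often than they rose. Of 45 secreted plasma proteins and apolipoproteins 1 rose and 15 fell (33.3% against 12.3% of all genes), and of 31 coagulation factors 2 rose and 13 fell (41.9%). Apoh, beta-2-glycoprotein I, read 1262, 1711, 1952 and 1486 in knockout livers, against 5629, 5297, 6383 and 6493 in control livers (-1.90 ± 0.25, adjusted p = 3.8e-06). Clotting factor F7 read 199, 304, 461 and 274 in knockout livers, against 1064, 1079, 1061 and 1049.9 in control livers (-1.79 ± 0.21, adjusted p = 6.8e-07), with no overlap and a tight control group. Serpina5, the protein C inhibitor, went the other way, reading 87.3, 59.0, 129 and 87.7 in knockout livers and at most 3.03 in control livers, at least 5.35-fold higher. Apoa2 (0.14 ± 0.08), Ahsg (0.08 ± 0.08), Trf (-0.06 ± 0.09) and Ttr (0.07 ± 0.12), abundant liver products, did not pass the test. They belong to the liver-defining markers, of which 3 of 10 were lower (30.0%) and none higher. Trf read 37471 on control replicate 4, near the largest value of the series (38683), and saturation of such bright probes was not tested.

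Hepatocyte transcription factors had 2 of 31 higher and 8 lower, and 4 lower without knockout replicate 3 or 5. Nr5a2, the receptor LRH-1 that drives bile acid genes, read 324, 279, 283 and 221 in knockout livers, against 628, 679, 615 and 835 in control livers (-1.27 ± 0.17, adjusted p = 5.4e-06). Cebpa, a master factor of liver metabolism, read 228 to 364 in knockout livers and 428 to 539 in control livers (-0.75 ± 0.15, adjusted p = 7.0e-04). Hnf4a, the central hepatocyte factor, overlapped between groups and was not called (-0.06 ± 0.11, adjusted p = 0.73). Among xenobiotic and nuclear receptors none of 25 rose and 5 fell, including the drug sensor Nr1i2, known as PXR (-0.74 ± 0.17), and 2 or 3 fell without any 1 array other than knockout replicates 1 and 4. Nr1i3, the drug sensor CAR, was lower by a small margin (-0.73 ± 0.26, adjusted p = 0.041) and was not called without any 1 array other than knockout replicate 1 (differences of -0.78 to -0.64, adjusted p = 0.054 to 0.12).

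Drug-metabolising enzymes were examined next. Cytochrome P450 genes had 6 of 49 higher and 17 lower (34.7%), with a median of -0.40. Cyp2c29, an epoxygenase, read 196, 233, 542 and 264 in knockout livers, against 1372, 1249, 1812 and 1069 in control livers (-2.18 ± 0.34, adjusted p = 3.4e-05), with knockout replicate 4 nearest the controls. Carboxylesterases, which split drug and lipid esters, had none of 10 higher and 7 lower (70.0%), with Ces1e at 137, 123, 234 and 56.3 in knockout livers, against 1069, 989, 432 and 1012 in control livers (-2.59 ± 0.48, adjusted p = 2.3e-04). Sult2a8, a sulfotransferase, read 187, 194, 739 and 155 in knockout livers, against 3386, 3879.8, 2269.8 and 2712 in control livers (-3.47 ± 0.38, adjusted p = 1.6e-07). Inmt, a methyltransferase of small amines, read 684, 905, 2116 and 461 in knockout livers, against 19172, 16771, 12873 and 17492 in control livers, and fell by 4.19 ± 0.67 (adjusted p = 4.2e-05).

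Of 46 urea cycle and amino acid catabolism genes 2 rose and 19 fell (41.3%), with a median of -0.47. Otc, ornithine transcarbamylase of the urea cycle, read 132, 187, 186 and 168 in knockout livers, against 407, 409.9, 429 and 283 in control livers (-1.11 ± 0.22, adjusted p = 3.9e-04). Uox, urate oxidase, read 6251, 4682, 11532 and 4453 in knockout livers, against 16054, 17956, 15299 and 18816 in control livers (-1.44 ± 0.33, adjusted p = 0.0016). In the stress pathway driven by ATF4, Atf3 read 116, 95.0, 56.4 and 78.3 in knockout livers and at most 8.71 in control livers, and Ddit3, known as CHOP, rose by 1.76 ± 0.23, while Chac1, another ATF4 target, fell by 1.18 ± 0.21. The list had 6 of 29 higher and 5 lower, shares (20.7% and 17.2%) not far from those over all genes (14.6% and 12.3%). Of 20 chaperones and folding genes of the endoplasmic reticulum none rose and 3 fell (15.0%, near the share over all genes). Without any 1 of knockout replicates 1 and 3 or control replicates 1, 3 and 5, 1 fell.

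Bile acid genes went in both directions. Of 30 tested, 5 rose (16.7%, near the 14.6% of all genes) and 11 fell (36.7%). Slc10a1, the importer of bile acids at the blood side, read 6.79 to 24.2 in knockout livers and 102 to 169.8 in control livers (-2.28 ± 0.21, adjusted p = 8.7e-09). Cyp39a1, a hydroxylase of oxysterols, read 30.6 to 59.1 in knockout livers and 186 to 261 in control livers (-2.01 ± 0.27). Exporters were among the risers, with Abcb4, the phospholipid pump of bile, at 11926, 12486, 10002 and 11179 in knockout livers, against 4845, 5707, 5041 and 5056 in control livers (1.14 ± 0.13, adjusted p = 2.0e-07), and Slc51b, a subunit of the basolateral exporter, also higher (2.06 ± 0.37).

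Of 28 genes of cholesterol synthesis and uptake none rose, 13 fell (46.4% against 12.3% of all genes) and 15 were not called, with a median of -0.62. Tm7sf2, a sterol reductase, read 68.3, 152, 154 and 122 in knockout livers, against 503, 447, 398 and 356 in control livers (-1.70 ± 0.25, adjusted p = 1.2e-05). Lipogenic genes had 1 of 32 higher, 12 lower (37.5%) and 19 not called. Thrsp, which promotes fat synthesis, read 193, 191, 318 and 185 in knockout livers, against 3273, 3968, 2726 and 5015 in control livers (-3.98 ± 0.53, adjusted p = 3.2e-06), and Mlxipl, the carbohydrate sensor ChREBP, read 1062 to 1921 and 2344 to 3519 (-0.97 ± 0.20). Fatty acid oxidation and PPAR alpha targets stood nearer the background, with 2 of 36 higher and 7 lower, and 4 lower without knockout replicate 3 or control replicate 3. Pdk4, the kinase that spares glucose, read 954, 812, 672 and 407 in knockout livers, against 184, 72.9, 78.4 and 76.0 in control livers (2.64 ± 0.39, adjusted p = 1.2e-05). Cidec, a protein of lipid droplets, read 676, 96.2, 63.6 and 107 in knockout livers and at most 6.68 in control livers (at least 8.87-fold higher), with knockout replicate 1 far above the other 3.

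Among enzymes of sugar metabolism, forms of liver and of other tissues went opposite ways in 2 cases. Pkm, the pyruvate kinase of most other tissues, read 371, 438, 497 and 491 in knockout livers, against 179, 136, 175 and 214 in control livers (1.28 ± 0.19, adjusted p = 1.3e-05), while Pklr, the liver form, read 67.8, 83.7, 97.8 and 52.1 in knockout livers, against 284, 474, 181 and 307 in control livers (-1.79 ± 0.37, adjusted p = 6.6e-04). Gluconeogenesis and glycogen genes had 1 of 26 higher and 10 lower (38.5%). Slc37a4, the glucose-6-phosphate transporter, read 89.8 to 219 in knockout livers and 363 to 516 in control livers (-1.61 ± 0.31), and Pygb, the brain glycogen phosphorylase, rose by 1.19 ± 0.26 while the liver form Pygl fell by 0.64 ± 0.12. Of 47 respiratory chain genes none rose and 16 fell (34.0%), but by small amounts, with a median of -0.15. Sdhb, a subunit of succinate dehydrogenase, read 1676, 1521, 1578 and 1434 in knockout livers, against 2532, 2735, 2598 and 2366 in control livers (-0.72 ± 0.12, adjusted p = 8.6e-05). Ribosomal protein genes had 10 of 36 higher and 1 lower, with Rps19 at 17200.4 to 20883 in knockout livers and 11137 to 11726 in control livers (0.71 ± 0.09).

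Some of the largest changes were in genes that follow the daily clock, and the labels give no hour of tissue collection. Rgs16, a regulator of G protein signalling, showed the largest fall of all genes, reading 65.9, 196, 515 and 182 in knockout livers, against 5147, 7098, 7988 and 7974 in control livers (-5.07 ± 1.03, adjusted p = 6.1e-04). Noct, the clock output deadenylase relative nocturnin, read 4031, 4895, 4805 and 4144 in knockout livers, against 84.1, 129, 140.0 and 452 in control livers (4.63 ± 0.40, adjusted p = 2.9e-09). Of 27 clock and output genes 2 rose and 8 fell. The core clock repressor Nr1d1 was lower (-1.55 ± 0.32, adjusted p = 8.1e-04). Whether the groups were collected at the same hour was not tested.

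Hepatocyte genes that mark the ends of the liver lobule held falls on both sides. Of 29 genes of hepatocytes near the portal vein 2 rose and 14 fell (48.3%), and of 24 genes of those near the central vein 4 rose and 7 fell (29.2%). Among the periportal genes, Hal, histidine ammonia lyase, read 2238, 2427, 3042 and 2052 in knockout livers, against 5024, 5109.8, 5147 and 6456 in control livers (-1.16 ± 0.26, adjusted p = 0.0016). The difference between both lists was not tested. Among the pericentral genes, Oat, ornithine aminotransferase, rose by 0.74 ± 0.15 and Rgn, regucalcin, fell by 1.20 ± 0.22.

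Genes that differ between the sexes in adult liver were compared with week 8 as well, where a test of the difference between the weeks is possible. At week 4, male-biased genes went both ways, with 6 of 28 higher and 7 lower. Nat8, an N-acetyltransferase, read 1441, 1407, 1595 and 1279 in knockout livers, against 17.9, 16.6, 12.8 and 18.4 in control livers (5.48 ± 0.22, adjusted p = 1.3e-15), yet at week 8 its difference was -0.39 ± 0.22 (adjusted p = 0.15, and 4.2e-12 for the difference between the weeks). Cyp4a12b, a male-specific fatty acid hydroxylase, read 1663, 834, 1542 and 1004 in knockout livers, against 35.4, 87.6, 1.94 and 17.7 in control livers at week 4 (4.86 ± 0.35), and its week 8 difference was -0.38 ± 0.35 (adjusted p = 0.39). The direction turned for Cyp7b1, an oxysterol hydroxylase, which read 2663, 3415, 5167 and 2653 in knockout livers, against 965, 869, 408 and 860.0 in control livers at week 4 (2.16 ± 0.35, adjusted p = 4.4e-05), against a week 8 difference of -3.11 ± 0.35 (adjusted p = 5.9e-08, and 7.3e-08 for the difference between the weeks). At week 8 Cyp7b1 read 999.9 to 3194 in knockout livers and 9876 to 18348 in control livers. The complement gene C6 (2.27 ± 0.25 at week 4, -1.70 ± 0.25 at week 8) and Serpina12, the adipokine vaspin (3.22 ± 0.51 and -1.43 ± 0.51), were likewise higher at week 4 and lower at week 8, past the threshold both times. At week 8 Serpina12 read 876 to 6482 in knockout livers and 6034 to 8878 in control livers, so its groups overlapped. Hsd3b5, a steroid dehydrogenase of male liver, read 2.09, 18.5, 364 and 15.6 in knockout livers, against 1724, 2183, 214 and 543 in control livers, and fell by 4.00 ± 0.66 at week 4, with knockout replicate 4 above the lowest control.

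Female-biased genes showed the opposite turn. Cyp2b13, a female-specific P450, read 455, 591, 556 and 470.3 in knockout livers, against 2446, 1578, 2440.4 and 1678 in control livers at week 4 (-1.92 ± 0.39, adjusted p = 6.6e-04), against a week 8 difference of 3.03 ± 0.39 (adjusted p = 6.5e-07, and 1.6e-06 for the difference between the weeks). Abcd2, a peroxisomal fatty acid transporter, differed by -2.19 ± 0.39 at week 4 and 1.27 ± 0.39 at week 8, past the threshold both times. At week 8 Cyp2b13 read 67.7 to 210 in knockout livers and at most 3.21 in control livers. Abcd2 then read 32.7 to 97.2 in knockout livers and -1.44 to 24.2 in control livers. The week 8 differences of both genes thus rest on control values near or below background. Of 13 female-biased genes, none rose and 4 fell at week 4, against 7 higher and 0 lower at week 8, and of the 28 male-biased genes 1 was higher and 22 lower at week 8. Igfbp3, a growth hormone target, was lower at week 4 and higher at week 8 as well (-1.04 ± 0.27 and 0.98 ± 0.27). The growth hormone receptor Ghr was lower at both (-0.82 ± 0.15 and -1.18 ± 0.15).

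**Figure D5:**
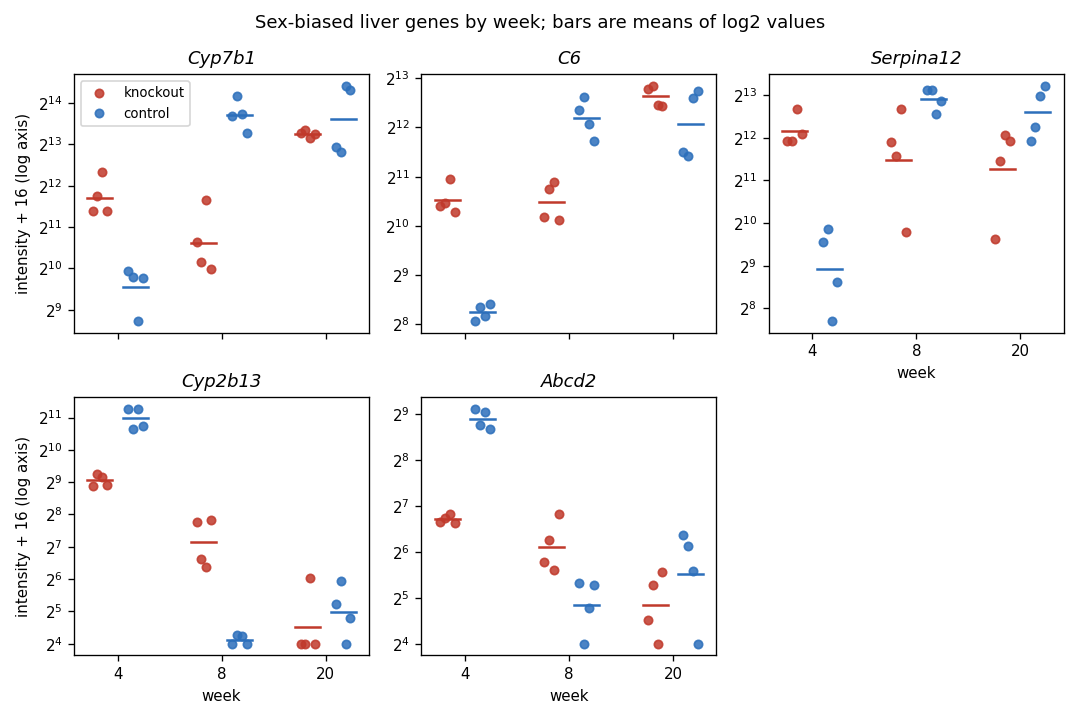
Intensity + 16 on a log axis, with values below 0 drawn as 0, for 5 sex-biased liver genes at weeks 4, 8 and 20, with 4 knockout arrays left of 4 control arrays at each week and bars at the means of log2 values. By their means, Cyp7b1, C6 and Serpina12 are higher in knockout than in control arrays at week 4 and lower at week 8, and Cyp2b13 and Abcd2 are lower at week 4 and higher at week 8. The week 8 arrays of Serpina12 overlap between the groups.

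Most week 4 calls were met again at week 8, on other arrays, although 1 fit over all 24 arrays gave the spread for every week. Of the 1563 genes higher at week 4, 1312 were higher and 26 lower at week 8, where 24.8% of all genes were higher and 23.9% lower. Of the 1317 lower genes, 1055 were lower and 8 higher at week 8. At week 20 few passed the test, with 154 higher and 12 lower of the 1563 and 72 lower and 25 higher of the 1317, where 3.37% of all genes were higher and 2.16% lower. Of the 136 genes detected in knockout arrays alone at week 4, 121 were higher at week 8 and 27 at week 20. Rhox5 differed by 7.47 ± 0.28 at week 8 and 4.44 ± 0.28 at week 20, and Bglap3 by 7.40 ± 0.26 and 4.89 ± 0.26, past the threshold each time. The test of a change between weeks, used for the sex-biased genes, called 5.44% of all genes for a higher and 3.21% for a lower difference at week 8 than at week 4, and 5.98% and 7.04% for week 20 against week 4. Some lists held fewer calls at week 4 than at week 8, a contrast that was not tested: 2 of 13 neutrophil markers and 15 of 42 stellate and matrix genes were higher at week 4, against 12 and 34 at week 8. Interferon-stimulated genes had 29 of 42 higher at week 4, 33 at week 8 and 1 at week 20.

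Further lists are given by their counts and shares, beside 14.6% higher and 12.3% lower over all genes. Of 18 sulfotransferases and glucuronosyltransferases 2 rose (11.1%) and 5 fell (27.8%). Of 25 flavin monooxygenases and alcohol and aldehyde dehydrogenases 2 rose (8.00%) and 6 fell (24.0%). Heat shock genes had 4 of 22 higher (18.2%) and 2 lower (9.09%), near the shares over all genes. Metallothioneins, iron and copper genes had 4 of 33 higher (12.1%) and 6 lower (18.2%), not far from those shares. Without any 1 of knockout replicates 1, 3 and 5 or control replicates 1 and 5, 2 or 3 were lower. Glycolytic and pentose phosphate enzymes had 8 of 34 higher and 7 lower, lipid droplet and uptake genes 3 of 25 higher and 6 lower, and Kupffer cell genes 7 of 16 higher and 1 lower. Of 17 growth hormone axis genes none rose and 3 fell (17.6%).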

How the data were processed

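Total RNA of mouse liver in 24 samples (6 groups of 4, by genotype and week) was labelled as biotinylated cRNA on an Illumina array, per the labels. The deposited intensity values were background-subtracted and normalized between arrays by the authors with GenomeStudio 2011, per the submitters' processing notes, with the method of normalization not stated; column medians of 13.3 to 13.6 and 27.8% of values below 0 come from the files. Signal columns of a second deposited table (24) match no sample label and were not used; it gave probe symbols, updated through RefSeq names for 3875 probes. Background is the one-sided 0.01 point of noise estimated from the values below 0. limma 3.58.1 (R 4.3.3) fitted all 24 arrays in 6 groups, with trended eBayes and Benjamini-Hochberg adjustment, and was tested on simulated data. Named genes are the 25 largest rises and falls without overlap, and the 6 lowest p and 2 largest differences per list; Asz1, Tuba3a, Mest, Gjb1, Nqo1, Rsad2, C1qb, C1qc, Trem2, S100a8, Col1a1, Mdm2, Slc51b, Mlxipl and Hsd3b5 were chosen after their values were seen. Members and gene lists were chosen with earlier results of these data known. Alternatives covered pseudocount, floor, filters, normalization, arrays left out, array weights and the probe rule.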

Additional observations from a re-analysis of the deposited data

Results flagged for a closer look

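In 29 of 305 groups of 4 arrays, each a named gene in one genotype at week 4, 1 array stood apart from the other 3 on the log2 scale by Dixon's test. Chance flags about 1 in 20 such groups, and what lay behind single arrays was not tested. Knockout replicate 1 was high for Magea5 (292) and low for Plk1 (255) and S100a8 (71.3). Knockout replicate 3 was low for Ahsg (30242) and Cd59b (106). Knockout replicate 4 was high for Sult2a8 (739) and Thrsp (318) and low for Cd163 (27.1), Cd74 (1116), Gpnmb (248), Gsta1 (4060.2), Slpi (5926) and Wfdc3 (113). Knockout replicate 5 was high for Gstp2 (15676), Phlda2 (98.3) and Tap2 (999.9). Control replicate 1 was high for Pdk4 (184) and low for Impact (172) and Pira4 (32.0). Control replicate 3 was high for Slc10a1 (169.8). Control replicate 4 was high for Lcn2 (399) and Trf (37471) and low for Ces1e (432), Cyp7b1 (408), Ly6e (566) and Nqo1 (84.5). Control replicate 5 was high for Hal (6456) and Slc37a4 (516) and low for Otc (283).

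The knockout minus control difference at week 8 departed from that at week 4, past the threshold of limma's interaction test, with signed changes (week 8 minus week 4, log2) of 3.46 for Abcd2, -3.98 for C6, 4.95 for Cyp2b13, -5.24 for Cyp4a12b, -5.27 for Cyp7b1, 2.02 for Igfbp3, -5.87 for Nat8 and -4.65 for Serpina12. For week 20 minus week 4 the signed changes past the threshold were -3.53 for Bglap3, -1.71 for C6, -4.62 for Cyp4a12b, -2.52 for Cyp7b1, 0.81 for Ghr, 1.41 for Igfbp3, -4.98 for Nat8, -3.03 for Rhox5 and -4.54 for Serpina12. These genes were chosen for their values at week 4, which favours changes towards 0 at other weeks.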

How the results depend on the processing

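Of the 158 named genes past the threshold, 147 kept direction and call under every alternative run, up to 19 per gene. Calls were lost with a pseudocount of 1 for 9 genes, among them Uhrf1, Col1a1, Spink1, Cyp2b13 and Abcd2, with a floor of 1 and quantile normalization again for 8, without any filter on dim probes for 5, with robust eBayes for 3, and with a floor of 16 for Hamp2. Leaving out single arrays ended the calls of 2 to 5 genes at a time, all among Hamp2, Mest, Nr1i3, Pnliprp1 and Tet2. A pseudocount of 50 ended none and brought Cdkn1a past the threshold. Without any filter on dim probes, genes higher at week 4 and again at week 20 numbered 97 in place of 154, and genes lower at both 40 in place of 72. Probes silent in knockout arrays numbered 53 to 74 when single arrays were left out (44 with all), and genes 39 to 54 (32 with all). Probes called higher ranged from 1522 to 1865 and lower from 1486 to 1809 over these fits, and reached 2440 and 2545 with array weights. Deviations of same-numbered knockout and control arrays from their group means were weakly correlated (r = -0.12, 0.01, -0.05 and -0.08). With only 4 arrays per group this cannot decide whether the numbers pair them. With the replicate number as a block 1780 probes were higher and 1769 lower, against 2044 and 2086 in the same 8 arrays without the block, and Dnmt1 stayed at -0.25. Dnmt1 ranged from -0.38 to -0.11 when single arrays were left out. The threshold of background and 4 arrays per group limit what can be read for dim probes, where many of the fold bounds lie.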
